A study of Drosophila melanogaster with 3 samples.

Results

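The genes of 8 forkhead family transcription factors, fkh, bin, croc, jumu, foxo, FoxK, FoxP and CHES-1-like, were examined for binding of tagged Nf-YC in Drosophila melanogaster embryos. They were taken by symbol from the Ensembl BDGP6 annotation, out of 13945 protein-coding genes on the main chromosome arms. A peak was assigned to a gene when its summit lay inside the gene or within 10 kb of it, and 43 of the 7476 peaks in the reproducible set met this rule. Whole embryos of mixed sex, aged 0 to 18 hours, were taken from 1 transgenic line that stably expresses Nf-Yc with green fluorescent protein at its C terminus, and the tagged protein was precipitated with an antibody against that tag. The 3 samples are biological replicates of this 1 group, with no second condition, so all comparisons below are between genes and between replicates. The labels do not say which promoter drives the transgene, and a whole embryo mixes all its tissues.

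Forkhead proteins bind DNA through a winged-helix domain, and many of them act as regional or tissue selectors in the embryo, in the gut, the salivary glands and the head. Others link transcription to metabolism, as foxo does downstream of the insulin receptor. Nf-YC is one of the histone-fold subunits of NF-Y, a trimer known for binding the sequence CCAAT, which reads ATTGG on the opposite strand.

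The reproducible set came from the irreproducible discovery rate (IDR) procedure, and peaks were ranked by signal, the value the authors' peak caller gave each peak. Signal has no stated unit and was not scaled between lists. Each replicate list holds 30000 peaks, with median signals of 61.6 in replicate 1, 45.3 in replicate 2 and 29.0 in replicate 3. Rank 1 is the strongest peak of a list, and a peak was followed into a replicate list through the nearest summit within 100 bp. The files give no read counts, so library depth is unknown. No 2 replicate lists shared an identical peak row.

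The sequences around 5 summits carry most of the description that follows, and each is printed as 201 bases centred on the summit, on the strand of the gene (dm6). Capitals mark CCAAT or ATTGG and GAGAG or CTCTC. The first is the peak 265 bp upstream of fkh (chr3R:28585429-28585629, minus strand), the strongest of all 43, which holds 3 CCAAT sites. The second and the third are the croc promoter peak (chr3L:21476581-21476781, minus strand) and the croc peak 3362 bp upstream (chr3L:21479741-21479941, minus strand), which differ in CCAAT. The fourth is the bin promoter peak (chr3L:6990398-6990598, plus strand). There CCAAT and ATTGG overlap in 1 palindrome. The last is the strongest CHES-1-like peak (chrX:7706845-7707045, minus strand), which is rich in A and T.
fkh, 265 bp upstream: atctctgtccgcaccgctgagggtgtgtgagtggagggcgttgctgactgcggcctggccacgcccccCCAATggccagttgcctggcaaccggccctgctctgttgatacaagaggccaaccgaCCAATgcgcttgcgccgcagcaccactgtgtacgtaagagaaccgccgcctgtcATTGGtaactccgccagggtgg
croc, 202 bp upstream: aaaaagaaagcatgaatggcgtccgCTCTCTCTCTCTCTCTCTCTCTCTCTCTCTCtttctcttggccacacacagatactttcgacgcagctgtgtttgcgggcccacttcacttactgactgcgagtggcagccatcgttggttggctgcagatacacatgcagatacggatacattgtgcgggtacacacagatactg
croc, 3362 bp upstream: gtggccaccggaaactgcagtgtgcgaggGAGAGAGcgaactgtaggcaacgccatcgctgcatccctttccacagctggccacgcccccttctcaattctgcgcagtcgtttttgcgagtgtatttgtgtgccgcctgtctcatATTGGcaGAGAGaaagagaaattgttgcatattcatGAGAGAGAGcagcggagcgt
bin, 124 bp upstream: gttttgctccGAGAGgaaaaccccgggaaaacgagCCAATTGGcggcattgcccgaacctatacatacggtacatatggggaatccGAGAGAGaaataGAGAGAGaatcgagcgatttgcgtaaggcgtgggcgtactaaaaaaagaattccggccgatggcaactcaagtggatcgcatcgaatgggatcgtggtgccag
CHES-1-like, intron: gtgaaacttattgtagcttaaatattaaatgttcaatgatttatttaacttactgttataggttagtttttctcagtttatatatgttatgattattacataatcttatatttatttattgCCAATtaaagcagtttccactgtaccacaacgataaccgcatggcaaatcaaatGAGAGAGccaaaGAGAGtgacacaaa

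All 8 genes had at least 1 summit in the gene or within 10 kb, as did 68.5% of the protein-coding genes. A summit within 500 bp of one of the gene's own transcription start sites (TSSs), called a promoter summit here, was present at 7 of 8, all but FoxP. The share over all protein-coding genes was 30.6%. Of the 8 genes, 7 are in the longest tercile of protein-coding genes, where 77.7% had a summit in the window and 44.3% had a promoter summit. The remaining one, croc, is in the middle tercile, where the shares were 71.2% and 30.8%. A promoter summit in each of the 3 full replicate lists was found at the same 7 genes, against 36.7% of all genes.

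The genes differed in how strong their peaks were. Summits among the strongest 10% of the set, 747 peaks with a signal of 1902 or more, lay in the windows of fkh, croc, bin, jumu, foxo and CHES-1-like. These are 6 of 8, where 13.0% of all genes and 17.1% of the longest tercile had one; the 10% limit was chosen after values were seen. The jumu summit lay nearer to another gene, so 5 of 8 had such a summit with their own TSS as the nearest, against 3.81% of all genes. At the promoters themselves, fkh and croc had a summit of this strength, 2 of 8, against 2.91% of all genes. The strongest summit of the window was the promoter summit at fkh, croc and FoxK, 3 of 8, against 18.8% of the 9555 genes with a summit. The windows held a median of 4.50 peaks, against 2.00 over all genes, and a median of 1.73 peaks per 10 kb of window, against 0.490. By means the contrast in density was smaller, at 1.62 peaks per 10 kb against 0.854. The mean number of peaks was 5.38 against 2.17.

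**Figure D1:**
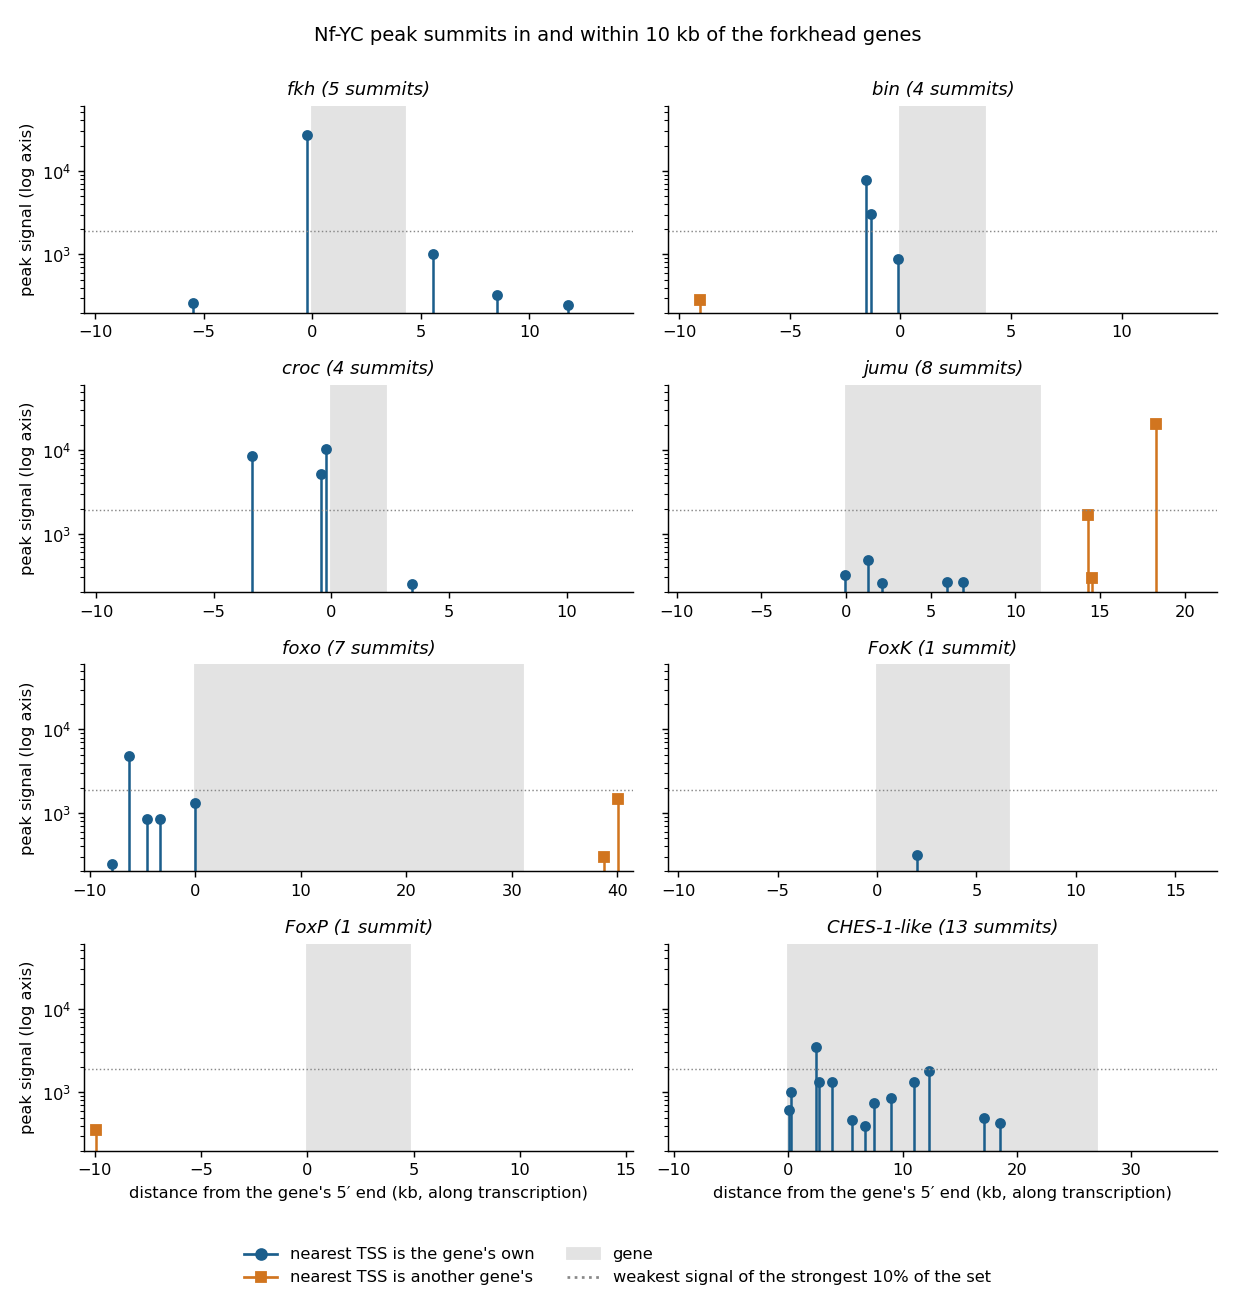
Peak summits in the windows of the 8 forkhead genes, by distance in kb from the gene's 5′ end along transcription and by peak signal on a log axis. Circles are summits whose nearest TSS is the gene's own and squares those nearer another gene; the strong promoter summits of fkh and croc, the 13 summits inside CHES-1-like and the single weak summits of FoxK and FoxP stand out.

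The tissue selector genes fkh, bin and croc had their strongest peaks close upstream. The gene fkh (FBgn0000659, chr3R:28580976-28585264, minus strand) is needed for the fore- and hindgut ends of the embryo and for salivary gland formation. It has 2 TSSs, and each distance given for fkh is to the nearest of them, which is not the same for upstream and downstream peaks. The peak 265 bp upstream had a signal of 26809.7, rank 38 of the set. In the replicate lists the signal was 11556, 8206 and 7135, and the ranks were 41, 38 and 36, a mean rank of 38.3 ± 2.52 (SD, n = 3). All 3 replicates therefore placed it within a few positions of the same rank. A promoter summit at least as strong was present at 0.194% of protein-coding genes.

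The other 4 peaks around fkh were much weaker, with set signals between 247 and 1007, and none lay inside the gene. The strongest of them, 5396 bp downstream of the nearest TSS and 1260 bp past the gene's end, had signals of 495, 368 and 164 in replicates 1, 2 and 3. The peak 5486 bp upstream lay in an exon of a non-coding RNA gene, lncRNA:CR43126, and its ranks spread widely, at 9451, 27995 and 6450. All 5 peaks of fkh held CCAAT within 100 bp of the summit, 9 sites in all, and none of the 5 held GAGAG. The sites nearest to the summits of the weaker peaks are shown with the bases around them, on the minus strand of dm6, to let their flanks be compared with those of the promoter peak. Their positions are chr3R:28573537-28573591, chr3R:28576691-28576745, chr3R:28579681-28579735 and chr3R:28590722-28590776, in the order printed.
fkh, 11599 bp downstream: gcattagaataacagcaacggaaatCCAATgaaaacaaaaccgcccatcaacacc
fkh, 8371 bp downstream: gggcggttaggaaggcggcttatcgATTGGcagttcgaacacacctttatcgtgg
fkh, 5396 bp downstream: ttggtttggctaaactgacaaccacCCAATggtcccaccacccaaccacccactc
fkh, 5486 bp upstream: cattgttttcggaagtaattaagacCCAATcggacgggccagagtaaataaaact

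The gene croc (FBgn0014143, chr3L:21474133-21476479, minus strand) acts in the head segments and the anterior of the embryo. It had 3 summits among the strongest 10% of the set, more than any of the other 7 genes. The summit 202 bp upstream of the TSS had a set signal of 10206 and replicate signals of 4513, 3042 and 2657, at ranks 146, 154 and 151. A neighbouring summit at 429 bp upstream had a set signal of 5223, with 2936, 1915 and 1187 in the replicates. The farther one, 3362 bp upstream, had a set signal of 8402, with 3619, 2829.7 and 2009 in the replicates, at ranks 199, 168 and 196. The promoter summit ranked ahead of the far one in all 3 lists. The fourth summit, 1071 bp past the gene's end, was weak, at 249.5.

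The croc peaks were the richest in GAGAG, which was found in all 4 with 32 overlapping sites. The promoter summit alone had 14, in the run of CTCTC in the sequence printed above. It held no CCAAT, and the summit at 3362 bp held 1, at the ATTGG in capitals.

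The gene bin (FBgn0045759, chr3L:6990622-6994447, plus strand) is required in the visceral mesoderm, which forms the gut muscle. Its strongest summit lay 1546 bp upstream, outside the promoter window, with a set signal of 7867 and replicate signals of 3511, 2401 and 2043. The ranks of 206, 208 and 193 were again close, with a mean of 202 ± 8.14 (SD, n = 3). The adjoining summit at 1343 bp upstream, in the same region, had a set signal of 3079, and its rank ran from 352 in replicate 1 to 687 and 984 in replicates 2 and 3. The promoter summit at 124 bp was weaker, at 891, with 427, 340.4 and 124 in the replicates. The strong upstream summit (chr3L:6988976-6989176, plus strand) has no CCAAT and 1 GAGAG within 100 bp, while the promoter summit has CCAAT on both strands and 5 GAGAG sites.
bin, 1546 bp upstream: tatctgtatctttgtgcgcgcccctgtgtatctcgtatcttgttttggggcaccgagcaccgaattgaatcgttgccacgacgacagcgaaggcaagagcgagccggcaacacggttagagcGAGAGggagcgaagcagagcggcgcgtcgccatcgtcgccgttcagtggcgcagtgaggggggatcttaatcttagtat

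The gene jumu (FBgn0015396, chr3R:10350182-10361612, plus strand) acts in heart progenitors and blood cells. Its window held 8 summits, and the strongest had a set signal of 20352, rank 57. The replicate signals there were 9485, 7095 and 3776, at ranks 52, 47 and 99. This summit lay in an intron of the neighbouring gene Rfx, which encodes a winged-helix factor of another family, 1007 bp from a TSS of Rfx and 18304 bp from that of jumu. Of the 8 summits, 3 were nearer to Rfx. The 5 nearest to jumu, 1 at the promoter and 4 in introns, had set signals between 258 and 487. The promoter summit, 71 bp upstream, had signals of 96.5, 156 and 82.1 in the replicate lists, so the value in replicate 2 was the highest although its list has a lower median than that of replicate 1. The strongest intronic one had 237, 143 and 110.4. By the summits nearest to its own TSS, jumu thus had weak peaks. The strong peak in the window (chr3R:10368386-10368586, plus strand) is printed because it sets the rank of jumu among the 8 genes.
jumu window, in Rfx: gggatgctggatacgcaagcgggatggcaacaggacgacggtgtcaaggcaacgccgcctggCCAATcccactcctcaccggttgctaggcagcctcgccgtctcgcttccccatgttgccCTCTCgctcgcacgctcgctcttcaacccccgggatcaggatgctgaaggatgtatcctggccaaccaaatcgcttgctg

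The gene foxo (FBgn0038197, chr3R:14056945-14087978, plus strand) encodes the factor held in the cytoplasm when insulin signalling is active. It is the longest of the 8 genes, at 31.0 kb, and none of its 7 summits lay inside it. The promoter summit, 10 bp upstream of a TSS, had a set signal of 1305 and replicate signals of 545, 536 and 259. A stronger summit lay 6255 bp upstream between genes, with a set signal of 4820.2 and 2556, 1440.1 and 827 in the replicates, at ranks 286, 338 and 387. The upstream summit exceeded the promoter summit in every replicate list. A further 3 upstream summits, 3358 to 7906 bp from the TSS, had set signals of 249 to 840.4. The 2 summits beyond the 3′ end were nearer to CCHa1, a neuropeptide gene, than to foxo. The upstream summit (chr3R:14050590-14050790, plus strand) has no CCAAT within 100 bp and 2 sites of CTCTC.
foxo, 6255 bp upstream: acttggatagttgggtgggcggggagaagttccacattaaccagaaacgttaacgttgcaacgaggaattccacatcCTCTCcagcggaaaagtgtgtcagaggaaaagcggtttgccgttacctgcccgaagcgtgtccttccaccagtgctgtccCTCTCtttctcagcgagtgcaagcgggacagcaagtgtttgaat

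CHES-1-like (FBgn0029504, chrX:7682338-7709385, minus strand) is named for its likeness to a human checkpoint suppressor and acts with jumu in heart progenitors. It had 13 summits, all inside its 27.0 kb: 11 in introns and 2 in the 5′ UTR. At least 13 summits were found for 0.301% of protein-coding genes and for 0.796% of the longest tercile, which starts at 3534 bp. These shares are not scaled to window length, and the CHES-1-like window spans 47.0 kb. Per 10 kb of window it held 2.76 peaks, against 2.55 for jumu and 2.06 for fkh. The 13 peaks formed 11 merged regions. The strongest, 1982 bp upstream of an internal TSS and in an intron, had a set signal of 3462, with 1689.8, 1077 and 712 in the replicates, at ranks 405, 446 and 440. The gene has 4 TSSs, and 3 summits lay within 500 bp of one of them. Of these, the strongest was 350 bp upstream, with a set signal of 1815 and replicate signals of 866, 603 and 327. The pair in the 5′ UTR had set signals of 1022 and 619.8.

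CCAAT was found near 1 of its 13 summits. The G+C content over 201 bp had a median of 30.3%, the lowest of the 8 genes, against 53.2% for fkh, and 40.8% over the whole set. A summit with a set signal of 1327, next to the strongest one, had no summit within 100 bp in any replicate list.

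FoxK and FoxP had the lowest signals when each gene was ranked by its strongest summit. FoxK (FBgn0036134, chr3L:11114169-11120783, minus strand), whose product resembles the mammalian FOXK factors, had 1 summit, in an intron and 312 bp upstream of an internal TSS. Its set signal was 317, and its replicate signals were 153, 177 and 27.7, at ranks 6080, 3339 and 15753. Replicate 3 placed it below the median of its list, but the strongest FoxK promoter summit of that list, at another position, had 71.6. Peaks called on pooled replicates gave 9 further summits in the FoxK window below the threshold, 4 of them at its own promoters. FoxP (FBgn0262477, chr3R:9726020-9730872, minus strand), which acts in the nervous system and in motor learning and decisions of the adult fly, had no summit of its own. The only summit in its window lay 9926 bp upstream and 101 bp from a TSS of Pnn. Its set signal was 349.9, with 176 and 90.2 in replicates 1 and 2 and no summit within 100 bp in replicate 3. The pooled list, which holds 30000 peaks, had no further summit in the FoxP window, and no replicate list had one at its promoters.

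The order of the genes by the strongest peak of the window was fkh, jumu, croc, bin, foxo, CHES-1-like, FoxP and FoxK. It was the same by mean signal, by mean rank and by mean log2 of the signal divided by the median of its list, each over the lists that hold the summit, which are 2 for FoxP. On that log2 scale fkh exceeded jumu by 0.47 ± 0.39 (SD, n = 3), jumu exceeded croc by 0.93 ± 0.38 and croc exceeded bin by 0.36 ± 0.02. The ranges of croc and bin over the replicates overlapped, although croc was higher in each list. The gene bin exceeded foxo by 0.83 ± 0.43, and foxo exceeded CHES-1-like by 0.41 ± 0.19. Each of these 5 differences had the same sign in 3 of 3 lists. The order was set by means over these same lists, so the sign of each mean difference followed from it. An exact two-sided sign-flip permutation test gave p = 0.25 for each, which is the smallest value that 3 lists allow. CHES-1-like exceeded FoxP by 3.42 ± 0.22 over the 2 lists that hold the FoxP summit, where the smallest possible p is 0.5. FoxP and FoxK overlapped: over the 2 lists that hold both, FoxP minus FoxK was -0.39 ± 0.82, so FoxK was the higher on average. With 2 or 3 lists the test cannot reach 0.05 whatever the values, so the differences are given as a description of the spread between lists.

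**Figure D2:**
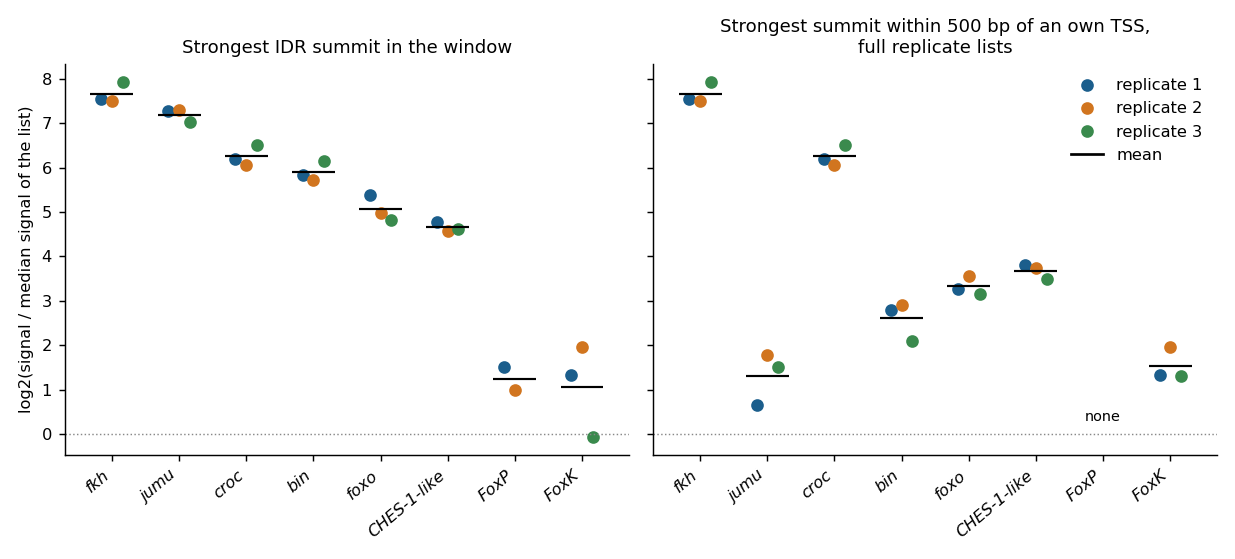
Log2 of peak signal over the median signal of its replicate list for the 8 genes, for the strongest reproducible summit in the window (left) and the strongest promoter summit in the full replicate lists (right). Points are the 3 replicates and bars their means; fkh and croc keep their level in both panels, jumu is at the level of FoxK in the right panel, and FoxP has no promoter summit.

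The promoter summits alone gave another order. The strongest window summits of jumu, bin, foxo and CHES-1-like lie outside their promoters, and FoxP has no promoter summit. The log2 values over the list median in the full replicate lists were 7.55, 7.50 and 7.94 for fkh and 6.20, 6.07 and 6.52 for croc. For CHES-1-like they were 3.81, 3.73 and 3.49, for foxo 3.26, 3.57 and 3.16, and for bin 2.80, 2.91 and 2.10. The values of FoxK, 1.32, 1.96 and 1.30, overlapped with those of jumu, 0.65, 1.79 and 1.50. The ranges of fkh, croc and bin overlapped with those of no other gene, and CHES-1-like and foxo overlapped with each other.

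**Figure D3:**
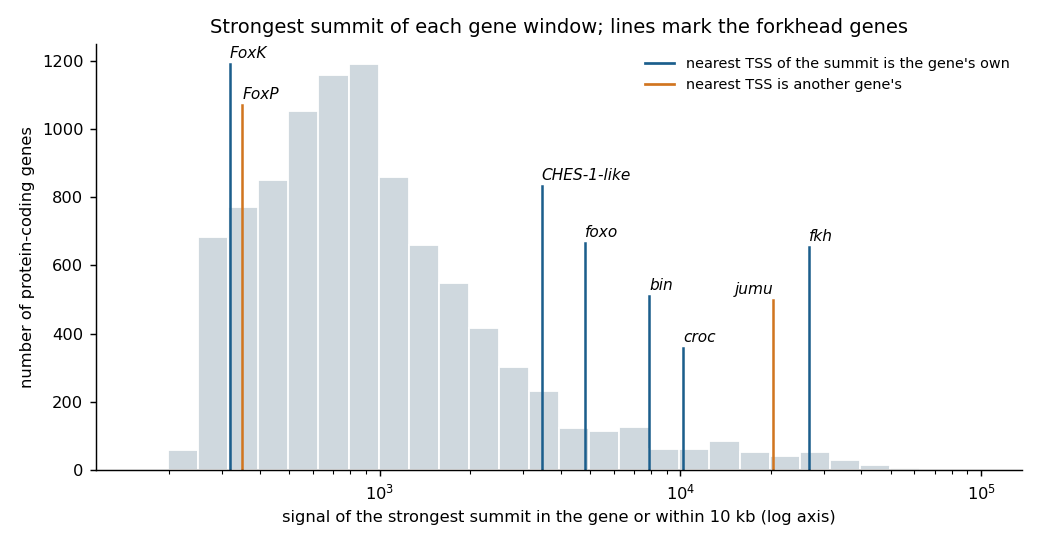
Number of protein-coding genes by the signal of the strongest summit in the gene or within 10 kb (log axis), with lines at the values of the 8 forkhead genes; line heights are for labelling only. FoxK at 317 and FoxP at 349.9 lie in the low part of the distribution and fkh at 26809.7 in its upper tail; the jumu and FoxP lines are summits nearer another gene.

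Over all 43 peaks, 36 had a TSS of the forkhead gene as the nearest and 7 lay nearer to another gene, namely Rfx, CCHa1, Galphai or Pnn. The peaks formed 38 merged regions. Promoter summits of the gene itself made up 10, and 30 lay over 1000 bp from any TSS. By annotation, 19 were intergenic, 18 intronic, 2 in coding exons of Rfx, 2 in a 5′ UTR and 2 in exons of non-coding RNA genes. Their median signal was 839, against 456 over the whole set, and 20.9% were among the strongest 10%. A summit within 100 bp was present in all 3 replicate lists for 37 of 43, against 80.9% of all peaks. Replicate 3 lacked 4 of the 43, and replicates 1 and 2 lacked 2 each; over the whole set they lacked 12.5%, 4.43% and 4.90%.

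**Figure D4:**
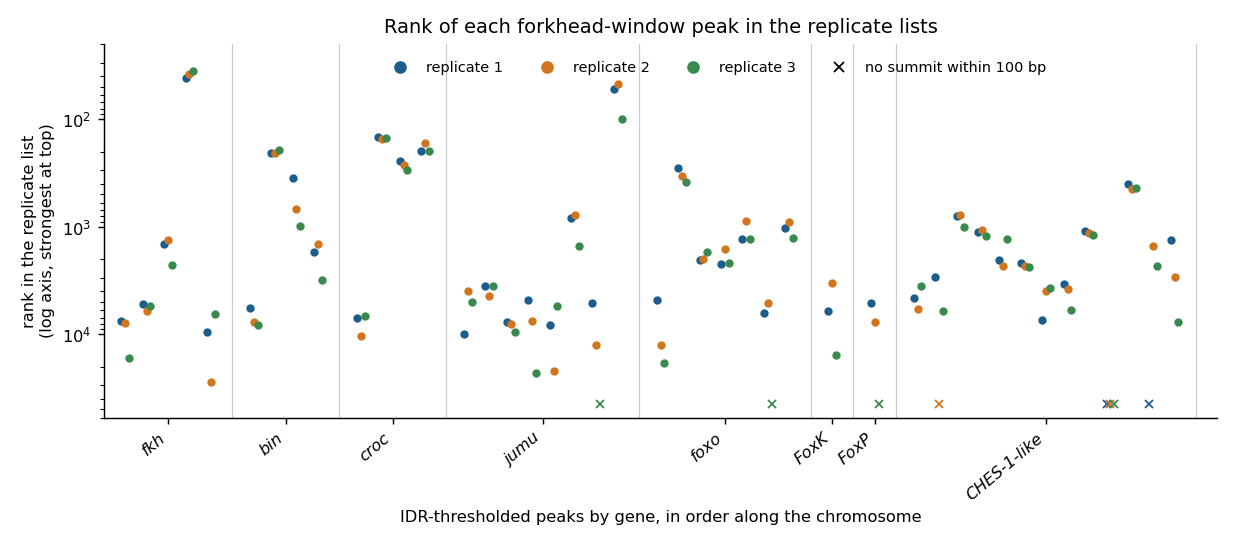
Rank of each of the 43 peaks in the 3 replicate lists (log axis, strongest at the top), grouped by gene in order along the chromosome, with crosses for peaks that have no summit within 100 bp in a list. The strongest peak each of fkh, croc and bin has nearly equal ranks in the 3 lists, and weak peaks such as the outer ones of fkh spread over a wide range of ranks.

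Sequence around the summits was searched on both strands within 100 bp. CCAAT was present at 17 of 43 summits, 39.5% (exact 95% binomial interval 25.0% to 55.6%, which covers counting error only), against 38.1% over the whole set. The share for the forkhead windows was thus near that of all peaks. The intervals here treat the 43 summits as independent, although they come from 8 genes and 13 are from CHES-1-like. The genes differed, from 5 of 5 at fkh and 4 of 8 at jumu to 1 of 13 at CHES-1-like and none at the single summits of FoxK and FoxP. GAGAG, the core of the sequence bound by GAGA factor, was present at 19 of 43, 44.2% (exact 95% binomial interval 29.1% to 60.1%), which includes the 31.7% of the whole set. TATCGATA, the core of the element bound by DREF, was found at 0 of 43 (interval 0% to 8.22%), against 4.13%. GTAAACA, the core of the sequence bound by forkhead proteins, was found at 2 of 43, 4.65% (interval 0.568% to 15.8%), against 5.66%. These 2 were the FoxK summit and the CHES-1-like promoter summit with the signal of 1815.

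Base composition moved with these shares. The 43 windows had a median G+C content of 44.3%, against 40.8% over the set. In the whole set, CCAAT was present at 32.0%, 40.2% and 42.3% of peaks in the lowest, middle and highest of 3 nearly equal groups by G+C, and GAGAG at 15.2%, 28.8% and 51.6%. Among the strongest 10% of the set the shares were 54.2% for CCAAT and 55.2% for GAGAG. The part of composition in the differences between the genes was not tested.

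**Figure D5:**
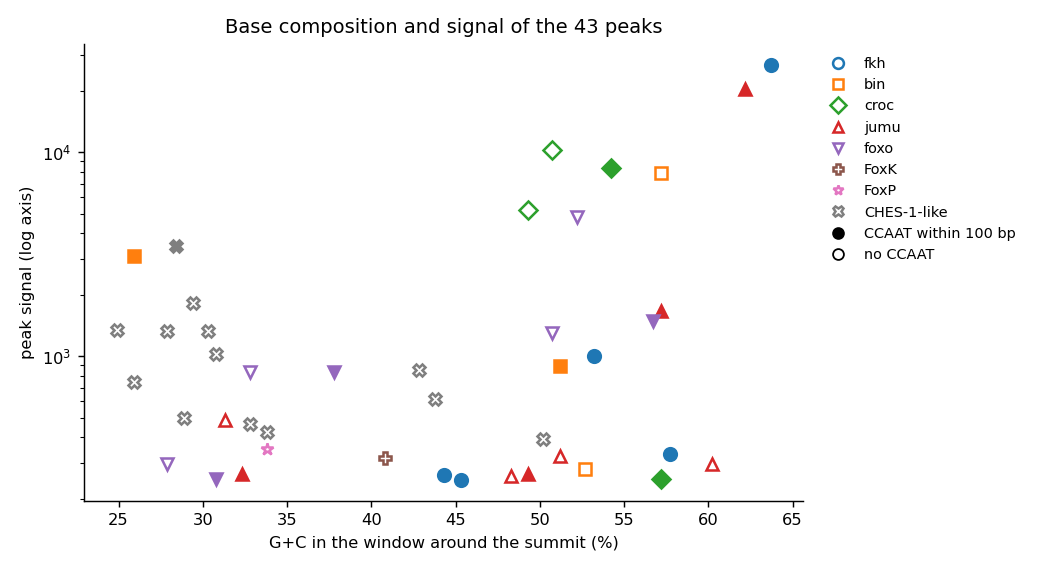
Peak signal (log axis) against the G+C content of the 201 bp around the summit for the 43 peaks, with a symbol for each gene, filled where CCAAT lies within 100 bp. All 5 fkh peaks are filled, and most CHES-1-like peaks sit below 35% G+C and are open.

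For the 3 genes with the strongest promoter summits, the genes outside the windows with the most similar values over the 3 replicate lists were found by Euclidean distance on the log2 scale, among 3368 genes. For fkh these were Dll, the limb selector, at a distance of 0.042, and pnr, a GATA factor gene, at 0.11. For croc they were Drgx, a homeobox gene, at 0.21, and twi, the mesoderm determinant, at 0.22. For CHES-1-like they were PAN3, a subunit gene of a deadenylase, at 0.098 and rpr, a cell death gene, at 0.13. Nearness here is of 3 values only.

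The list of other forkhead genes held 9 genes. A promoter summit was present at 7 of 9, and all 7 were among the strongest 10% of the set, against 2 of the 8 genes above. Over all protein-coding genes these shares were 30.6% and 2.91%. The highest promoter summit was that of fd96Cb at 27073, with 12468, 9476 and 5184 in the replicates, close to fkh. Next came fd102C at 16382, slp2 at 12876, slp1 at 11992 and fd59A at 9789. The values for fd96Ca and FoxL1 were 2491 and 2481. These are promoter summits, and the window of fd96Ca also held a stronger summit, at 31616, rank 26 of the set. In the windows, 7 of 9 genes had a summit among the strongest 10%, against 6 of the 8 genes above and 13.0% of all genes. No promoter summit was present at fd3F, whose strongest window summit was 1441, and fd19B had no summit in its window. The genes slp1 and slp2, pair-rule and head patterning genes, are neighbours and share summits in their windows. No test was made between these lists, whose members were chosen by name.

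In the insulin pathway around foxo, 9 of 12 genes had a summit in the window and 7 had a promoter summit, of which 0 were among the strongest 10%. Over all protein-coding genes the shares were 68.5%, 30.6% and 2.91%. The window held a summit among the strongest 10% at 1 of the 12 genes, against 13.0% of all genes. Among the strongest promoter summits were those at Pi3K21B with 1378, melt with 839 and Thor with 744. The foxo promoter summit, 1305, lay within this range. Among genes known for roles around fkh in the salivary gland, 8 of 9 had a summit in the window, 7 had a promoter summit and 4 had one among the strongest 10%. These were eyg with 33561, Scr with 10325, hth with 8681 and hkb with 3008. The shares over all protein-coding genes were again 68.5%, 30.6% and 2.91%. The window held a summit of this strength at 6 of the 9 genes, against 13.0% of all genes. Scr, the Hox gene that specifies the gland, had a weaker promoter summit than fkh in each replicate list.

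Values near the limits of the rule were as follows. The weakest of the 43 peaks were those of fkh at 247, foxo at 249 and croc at 249.5. The strongest pooled-list summits left out of the set were in the FoxK window, with 235 and 232, and in the fkh window, with 218. The summit with 235 lay 55 bp from a TSS of NaPi-III and 2510 bp upstream of the nearest FoxK TSS. The pooled list added 103 summits in the windows, 10 of them at the genes' own promoters and 23 with a summit in all 3 replicate lists. Just inside the 10 kb limit were the FoxP summit at 9926 bp and the bin summit at 9064 bp from the gene. Just outside were summits at 10581 bp from bin, with a signal of 689 and 3 bp from a TSS of Galphai, and at 10814 bp from CHES-1-like, with 259.8.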

How the data were processed

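Nf-YC was profiled by ChIP-seq in 3 biological replicates of 1 group. Per the deposited notes, the authors called peaks per replicate against 1 common control alignment, and once more on pooled replicates, and derived the IDR-thresholded set from these lists. The labels give dm6 as the build. Which aligner, caller and IDR threshold were used is not given in the sources used here. Peak strength is the deposited signal value, a score with no stated unit. The deposited −log10 q-value was 4.24 for every peak of the set and was not used. The control and the reads were not analysed here.

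Peaks were placed by summit on the Ensembl release 115 annotation (BDGP 6.54), with 1-based coordinates, in Python 3.11.15 with pandas 2.3.3 and scipy 1.17.1. Sequences were read from the RefSeq Release 6 genome. Neighbours in the order were compared by an exact sign-flip permutation test. No gene list was tested. The forkhead genes and the other lists were chosen with earlier results of these data known. Named genes were all 8 forkhead genes, every other forkhead gene, up to 4 per list with the strongest promoter summits, genes nearer to a described summit, and the 2 most similar genes for the 3 strongest promoters. Values of 1 such gene are not reported here. Alternatives covered windows, peak sets, TSS definitions, matching distance, scaling and each replicate left out. Placement of summits on genes and TSSs, matching of summits and the motif search were tested on simulated data with planted answers. The other steps were not tested in this way.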

Additional observations from a re-analysis of the deposited data

How the results depend on the processing

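With the gene body alone as the window, the number of genes with a summit dropped from 8 to 3 (jumu, FoxK and CHES-1-like) and the number of peaks from 43 to 18. The number of peaks was 27 among the 3738 strongest peaks of the set and 146 in the pooled list. With CCAAT searched within 200 bp of the summit the share was 62.8%. Leaving out each replicate in turn gave 6 to 7 genes with a summit in the window, 28 to 29 peaks, 5 to 6 genes with a promoter summit and a CCAAT share of 37.9% to 42.9%. These sets required a summit among the 7476 strongest peaks of both other lists and kept 4674, 4652 and 5321 peaks, so they are also stricter. FoxP dropped out of the window count in each of them, and FoxK without replicate 1 and without replicate 2. The number of peaks was 34 with a window of 5 kb, 59 with 20 kb and 37 for summits in all 3 lists. The mean rank of the FoxK summit, 8391 as reported, ran from 4709.5 without replicate 3 to 10916.5 without replicate 2, and it was 15753 when matched within 50 bp, in 1 list. A promoter window of 250 bp left 5 genes, without fkh and FoxK. With 1 TSS per gene, 6 genes kept a promoter summit, without FoxK. Among the 3738 strongest peaks of the set, 5 genes kept one, without jumu and FoxK. Counting only summits nearest to the gene's own TSS, an alternative added after seeing the data, left 7 genes and 36 peaks. No comparison between conditions was possible because there is no second group. Genes were compared within each list, so the differences between neighbours in the order are paired by list. With library depth unknown, a missing summit cannot be read as absence of binding.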
